A study of Mus musculus with 4 samples.

Results

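The genes described here are the rows of the count table that are named for proteins of the cytosolic ribosome. They were chosen by name alone: symbols made of Rpl or Rps and a number with an optional short suffix, and Rplp0, Rplp1, Rplp2 and Rpsa. Names ending in -ps and the Rps6k kinases, which phosphorylate a ribosomal protein but are not part of the ribosome, were left out. This gave 89 of the 55367 gene names in the table, 53 of the large subunit and 36 of the small subunit, on 19 chromosomes. Of the 89, 77 carry the name of a standard ribosomal protein (46 large, 31 small) and 12 are paralogs or pseudogene rows, 5 of which RefSeq types as pseudogenes. Fau, which encodes a ribosomal protein fused to a ubiquitin-like domain, has another kind of symbol and is given with the other translation genes further on.

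The data are 4 RNA libraries of endothelial cells taken from mouse tumours. KPC cells, a mouse pancreatic cancer line, were grown under the skin of C57BL/6 mice, and the cells were sorted as CD31+CD45-, that is, with the endothelial surface protein CD31 and without the leukocyte protein CD45. The mice had been given an antibody that binds CD93, a receptor in the endothelial cell membrane (anti-CD93, 2 libraries), or control rat IgG (control IgG, 2 libraries) 48 hours earlier. The labels do not say whether libraries came from separate mice, nor give sex, age or antibody clone, and p-values therefore reflect only how far these libraries differ, which may be technical. Every library came from a tumour-bearing, antibody-injected mouse.

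Ribosomal proteins coat and stabilise the ribosomal RNA of the 2 subunits, and most are present as a single copy in each ribosome. Their genes are read at high levels in nearly all cells. Their mRNAs typically begin with a run of pyrimidines at the cap, the terminal oligopyrimidine motif, through which the kinase mTOR and the protein Larp1 set how well they are translated. Several of these proteins also act outside the ribosome.

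The starts of a few members are shown because this start is what the family is known by. In the RefSeq promoter table for GRCm38.p6, 64 of the 89 genes had an entry, with 76 starts in all. The pyrimidine motifs searched were CTTTC and CTCTT, which can overlap each other, beginning within 10 bases either side of the annotated start. CTTTC was found in 13 of 76 member starts (17.1%), against 2.96% of all 32851 starts in the table, and CTCTT in 12 (15.8%), against 3.05%. Read on the opposite strand, as GAAAG and AAGAG, they were found in 2.63% and 1.32% of member starts, against 2.85% and 2.98% of all starts. Either motif was found in 27.7% of large-subunit and 20.7% of small-subunit starts. Each line below gives 10 bases before and 20 bases from the RefSeq start, 5′ to 3′ on the gene's strand, with the motifs in capitals. Rpl35, Rpl28, Rps27 and Rps6 hold a motif at the start, and Rpl37 and Rpl6, which had some of the larger differences between the groups, and Rps12, which lay on the higher side, hold neither; a match or its absence in these windows describes the letters only. The windows are chr2:39005112-39005141 (minus strand) for Rpl35, chr7:4792955-4792984 (plus) for Rpl28, chr3:90213629-90213658 (minus) for Rps27, chr4:86857348-86857377 (minus) for Rps6, chr15:5116603-5116632 (plus) for Rpl37, chr5:121204491-121204520 (plus) for Rpl6 and chr10:23787190-23787219 (minus) for Rps12.
Rpl35: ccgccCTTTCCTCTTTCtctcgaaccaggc
Rpl28: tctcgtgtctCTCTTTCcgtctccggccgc
Rps27: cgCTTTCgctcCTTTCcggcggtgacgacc
Rps6: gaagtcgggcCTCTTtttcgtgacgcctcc
Rpl37: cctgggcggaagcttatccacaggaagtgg
Rpl6: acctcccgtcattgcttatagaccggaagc
Rps12: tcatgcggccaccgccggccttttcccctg

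The libraries held 17813993 and 13808077 assigned reads with anti-CD93, against 12264231 and 9364294 with control IgG. Control IgG replicate 2 stood apart from the other 3 libraries: mitochondrial ribosomal RNA took 6.20% of its reads against 11.0% to 11.8% in the others, and olfactory and vomeronasal receptor genes summed to 359.6 CPM (reads per 1e6 assigned) against 52.0 to 56.6 CPM. The 10 endothelial markers were read in every library, summing to 8002 and 8121 CPM with anti-CD93 and 8212 and 9803 CPM with control IgG, while the 10 leukocyte markers summed to 28.6 and 23.5 CPM with anti-CD93 and 14.3 and 28.9 CPM with control IgG, with 2 and 1 of them at 0 in the anti-CD93 libraries and 1 and 0 in the control IgG libraries. Tumour epithelial markers, a list of 7 with keratins and Epcam, were also present at 2365 and 1986 CPM with anti-CD93 and 1703 and 2461 CPM with control IgG, and the 9 stromal and mural markers at 2096 and 2433 CPM with anti-CD93 and 2379 and 3085 CPM with control IgG. The 7 erythroid markers summed to 29.0 and 19.6 CPM with anti-CD93 and 9.70 and 20.7 CPM with control IgG. The part of these cells and of that library in the ribosomal protein values was not tested beyond the fits that leave a library out. In such bulk libraries fewer cells of a type and less RNA per cell cannot be told apart. Cd93, the antibody's target, had 1716 and 1514 CPM with anti-CD93 and 1530 and 1759 CPM with control IgG, a log2 fold change of -0.026 (SE 0.18, adjusted p = 0.976 by edgeR); an antibody need not alter the mRNA, so this does not check the labels.

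Summed over the 89 genes, ribosomal protein reads made up 1.62% (exact 95% binomial interval 1.61% to 1.62%) and 1.64% (1.64% to 1.65%) of assigned reads in the anti-CD93 libraries. In the control IgG libraries they made up 1.58% (1.58% to 1.59%) and 2.17% (2.16% to 2.18%). The anti-CD93 libraries lay close together and between the control libraries, and 1 library, control IgG replicate 2, was well above the other 3. These intervals cover counting error only and treat every read as independent. Mates of a pair were counted separately, so the intervals are too narrow even for counting error. Comparing 2 libraries against 2 cannot give a two-sided exact permutation p below 0.333.

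Large-subunit genes took 0.980% and 1.00% of reads with anti-CD93, against 0.977% and 1.36% with control IgG. Small-subunit genes took 0.636% and 0.641% with anti-CD93, against 0.607% and 0.808% with control IgG. The ratio of large-subunit to small-subunit reads was 1.54 and 1.56 in the anti-CD93 libraries and 1.61 and 1.68 in the control IgG libraries. Unlike the shares themselves, the ratio did not overlap between the groups. The nearest values of the groups, 1.56 and 1.61, were closer together than the control IgG libraries were. Such separation is common: of all genes tested, 20.1% had both anti-CD93 libraries above both controls and 19.7% had both below. The 319 pseudogene rows named with -ps, which were not among the 89, summed to 475 and 458 CPM with anti-CD93 and 450 and 488 CPM with control IgG. Control IgG replicate 2 was closer to the other libraries there than in the 89 genes.

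**Figure D1:**
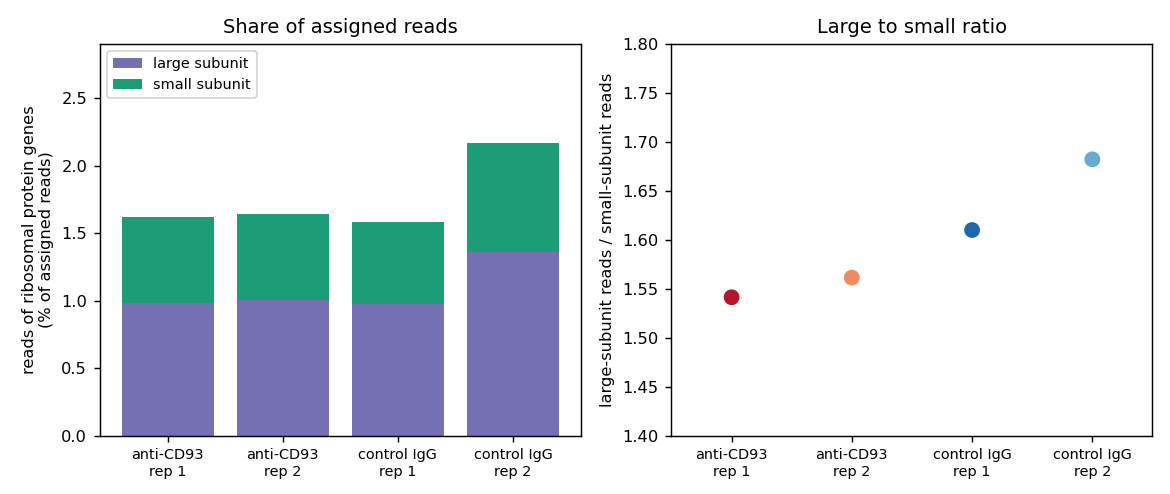
Left, share of assigned reads (%) taken by large-subunit and small-subunit genes in each library, stacked; right, large-subunit reads divided by small-subunit reads (axis starts at 1.4). The bars reach 1.62% and 1.64% in the anti-CD93 libraries and 1.58% and 2.17% in the control IgG libraries, and the ratio is 1.54 and 1.56 against 1.61 and 1.68.

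Levels between genes were compared as RPKM, the CPM of a gene per kilobase of merged exon length. CPM values of single genes were scaled as for the test, over the reads of the tested genes. Rplp1, a protein of the acidic stalk that recruits elongation factors, had the highest level of all 89 genes, 595 and 609.9 RPKM with anti-CD93 and 537 and 934 RPKM with control IgG. It lay above Rpl36, the next in order, in every library (374 and 389 RPKM with anti-CD93, 329.7 and 458 RPKM with control IgG). Rplp0, the protein on which the stalk is built, averaged 355 ± 120 RPKM over the 4 libraries (SD), and Rpl26 averaged 346 ± 118 RPKM. By library, Rplp0 had 295 and 296 RPKM with anti-CD93 and 295 and 535 RPKM with control IgG. Rpl26 had 288 and 301 RPKM with anti-CD93 and 271 and 522 RPKM with control IgG. The order of these neighbours changed between libraries, with Rpl26 the higher only in anti-CD93 replicate 2.

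Among the highest levels in the small subunit were those of Rps3a1 (367 ± 45.1 RPKM, SD of 4 libraries), Rps23, a protein of the decoding centre (332 ± 72.9 RPKM), and Rpsa (245 ± 90.9 RPKM). The median of the 77 standard genes was 113 RPKM for the large subunit and 88.7 RPKM for the small subunit, and their mean levels spanned 629-fold. At the lower end of that span were rows whose exons or sequences are shared with other genes, and reads with more than 1 possible source were not counted. Rpl24 averaged 1.06 RPKM, with 47.0% of its exon bases under Gm28037 and 80.1% of its transcript windows of 100 bases also found in other genes. Rps10 averaged 2.65 RPKM with 28.7% of exon bases under Gm49804, and Rpl13a averaged 6.00 RPKM with 35.4% under Gm45713. Rps15a, at 18.7 RPKM, has no such overlap but a merged exon length of 6270 bases, which lowers a value per length. Other rows with as much shared sequence were not low, such as Rps6 (83.6% of windows, 237 RPKM) and Rpl3 (79.4%, 136 RPKM), and the part of sharing in the levels was not tested. The low values are uncertain as levels of the genes.

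In all, 8 members had at least 25% of their exon bases under another gene and 25 members shared at least 50% of their windows, among them Rpl10 (84.4%), Rps6 (83.6%) and Rps12 (81.4%, shared with 18 genes). The 60 members below both limits are called distinct here, and 57 of them were tested.

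**Figure D2:**
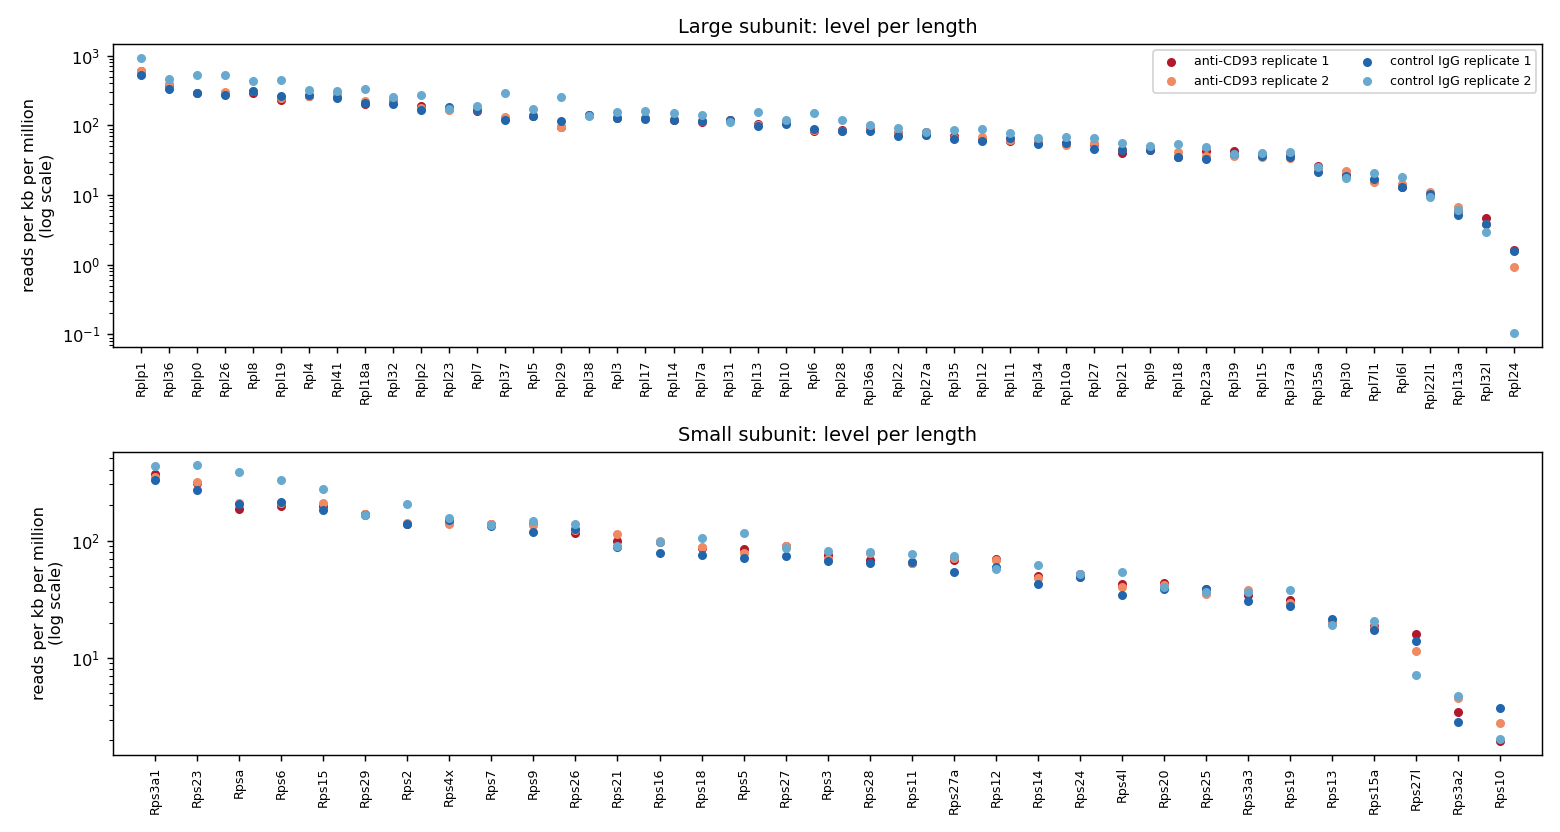
RPKM on a log axis of tested large-subunit (top) and small-subunit (bottom) genes, most of them drawn, in the 4 libraries, in order of mean level. Rplp1 at 669 RPKM and Rps3a1 at 367 RPKM lead, and Rpl24 (1.06 RPKM) and Rps10 (2.65 RPKM) close the rows.

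Of the 89 genes, 85 had enough reads for the test (50 large, 35 small). Between anti-CD93 and control IgG none of them passed edgeR's quasi-likelihood test at a Benjamini-Hochberg adjusted p under 0.05, and none of the 16945 genes tested did (0.0%). At an unadjusted p under 0.05, 1 ribosomal protein gene, Rpl29, was lower and none was higher, against 2.5% and 1.99% of all genes tested. DESeq2 and limma-voom likewise called 0 members, with 5 (0.015%) and 0 (0.0%) genes called in all. With no count filter edgeR called 48 genes (0.144%), of which Rpl29 (log2 fold change -0.88, adjusted p = 0.031) was the 1 member, and with the replicate number as a block it called 14 genes (0.0826%) and 0 members.

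Of the 85, 62 had a log2 fold change below 0 and 23 above 0, with a median of -0.098; over all genes tested 49.1% were above 0 and the median was -0.0092. In the large subunit 41 of 50 were below 0 (median -0.15), and in the small subunit 21 of 35 (median -0.035). Both anti-CD93 libraries lay below both control libraries for 15 members, 10 large and 5 small, where 19.7% of all genes tested did so. Both lay above for 9 members, 2 large and 7 small, where 20.1% of all genes did so. The groups thus overlapped in 61 of 85 members.

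The stalk of the large subunit shows the common pattern. Rplp0 had 489 and 491 CPM in the anti-CD93 libraries, against 489.8 and 887 CPM in the control IgG libraries. Its 2 anti-CD93 values and control IgG replicate 1 were within 3 CPM of each other, and the group difference lay in the other control library, giving a log2 fold change of -0.49 (SE 0.27, adjusted p = 0.812 by edgeR). Rplp1 had 297 and 304 CPM in the anti-CD93 libraries, against 268 and 466 CPM in the control IgG libraries. Rplp2 had 393 and 373 CPM in the anti-CD93 libraries, against 349 and 558 CPM in the control IgG libraries. Both acidic stalk genes had anti-CD93 values between those of the 2 control libraries, with log2 fold changes of -0.29 (SE 0.26) and -0.24 (SE 0.23).

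Rpl29 (chr9:106429454-106431568 on GRCm38, plus strand), a basic protein of the large subunit, had the largest difference among the members below 0. Rpl29 had 108 and 108 CPM in the anti-CD93 libraries, against 131 and 283 CPM in the control IgG libraries. The anti-CD93 values were almost equal and lay below both controls, but control IgG replicate 2 was more than 2-fold above control IgG replicate 1, and the log2 fold change of -0.94 (SE 0.32, adjusted p = 0.812 by edgeR) had an unadjusted p of 0.0200. Leaving out control IgG replicate 2 gave a log2 fold change of -0.28 (SE 0.10, adjusted p = 0.493 by edgeR), whereas leaving out control IgG replicate 1 gave -1.36. Rpl29 shares 41.0% of its windows with 25 other genes.

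Rpl37 had 216 and 220.1 CPM in the anti-CD93 libraries, against 202 and 494 CPM in the control IgG libraries. Rpl37 (chr15:5116645-5119140 on GRCm38, plus strand), a zinc-binding protein of the large subunit, thus had overlapping groups, with 1 control library at 494 CPM and the other 3 between 202 and 220.1 CPM, and a log2 fold change of -0.67 (SE 0.36, adjusted p = 0.812 by edgeR). Rpl19 had 239 and 253 CPM in the anti-CD93 libraries, against 267 and 461 CPM in the control IgG libraries, a log2 fold change of -0.56 (SE 0.26, adjusted p = 0.812 by edgeR). Rpl6 had 261 and 273 CPM in the anti-CD93 libraries, against 278 and 467 CPM in the control IgG libraries, a log2 fold change of -0.48 (SE 0.25, adjusted p = 0.812 by edgeR). For Rpl19 and Rpl6, both structural proteins of the large subunit, the groups did not overlap, yet control IgG replicate 1 was nearer to the anti-CD93 values than to the other control. Rpl26 had 416 and 435 CPM in the anti-CD93 libraries, against 392 and 754 CPM in the control IgG libraries, so that control IgG replicate 1 was the lowest library and control IgG replicate 2 the highest.

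On the higher side of the large subunit, Rpl30 had 58.8 and 67.9 CPM in the anti-CD93 libraries, against 57.2 and 53.4 CPM in the control IgG libraries. The groups did not overlap for Rpl30, with a log2 fold change of 0.19 (SE 0.19, adjusted p = 0.831 by edgeR). Rpl13a had 12.5 and 14.4 CPM in the anti-CD93 libraries, against 10.9 and 12.95 CPM in the control IgG libraries, with overlapping groups, and its counts are uncertain because of the shared exon bases given above. Rpl38 had 75.8 and 77.0 CPM in the anti-CD93 libraries, against 75.3 and 73.7 CPM in the control IgG libraries, a range of under 4 CPM over all 4 libraries. Rpl38, named here after its values were seen and known in mice for a patterning role in the axial skeleton, and Rpl30 were the only 2 of the 50 large-subunit genes with both anti-CD93 libraries above both controls.

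In the small subunit, Rpsa had 589 and 665 CPM in the anti-CD93 libraries, against 645 and 1206 CPM in the control IgG libraries. Rpsa (chr9:120127689-120132369 on GRCm38, plus strand), also known as the laminin receptor precursor, took the most reads of the 89 genes, and its anti-CD93 values lay on either side of control IgG replicate 1, with a log2 fold change of -0.56 (SE 0.28, adjusted p = 0.812 by edgeR). Rps6 had 313 and 329 CPM in the anti-CD93 libraries, against 337 and 523 CPM in the control IgG libraries. For Rps6, the protein that the Rps6k kinases phosphorylate downstream of mTOR, both anti-CD93 libraries lay below both controls, with a log2 fold change of -0.42 (SE 0.23, adjusted p = 0.812 by edgeR); its start with CTCTT was shown above, and 83.6% of its windows are shared with other genes. Rps2 had 251 and 258 CPM in the anti-CD93 libraries, against 251 and 373 CPM in the control IgG libraries, with control IgG replicate 1 level with the anti-CD93 libraries.

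The small-subunit genes named on the other side had lower CPM than Rpsa, Rps6 and Rps2. Rps21 had 80.1 and 92.3 CPM in the anti-CD93 libraries, against 70.9 and 72.9 CPM in the control IgG libraries, a log2 fold change of 0.26 (SE 0.18, adjusted p = 0.812 by edgeR). Both anti-CD93 values exceeded both controls, and no window of Rps21 (chr2:180257377-180258445 on GRCm38, plus strand) is shared with another gene. Rps12 had 140.3 and 138 CPM in the anti-CD93 libraries, against 119.9 and 117 CPM in the control IgG libraries, a log2 fold change of 0.23 (SE 0.17, adjusted p = 0.812 by edgeR). Of its windows, 81.4% are shared with other genes, and whether reads were lost to this was not tested. Rps16 had 124 and 126 CPM in the anti-CD93 libraries, against 99.3 and 123 CPM in the control IgG libraries. Rps27 had 93.6 and 93.1 CPM in the anti-CD93 libraries, against 77.5 and 89.8 CPM in the control IgG libraries. For Rps16 and Rps27 the groups did not overlap but control IgG replicate 2 was within 4 CPM of the anti-CD93 values, with log2 fold changes of 0.17 (SE 0.18) and 0.16 (SE 0.18). Control IgG replicate 2 was not the highest library for Rps21, Rps12, Rps16 and Rps27. That follows from both anti-CD93 libraries lying above both controls in these genes.

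Some members are known for roles beyond the ribosome or for disease. Rpl5 and Rpl11, which can bind Mdm2 and so stabilise p53, were both highest in control IgG replicate 2. Rpl5 had 539 and 551 CPM in the anti-CD93 libraries, against 532 and 679 CPM in the control IgG libraries, and the groups overlapped. Rpl11 had 162 and 164 CPM in the anti-CD93 libraries, against 175 and 213 CPM in the control IgG libraries, with both anti-CD93 libraries below both controls and a log2 fold change of -0.25 (SE 0.18, adjusted p = 0.812 by edgeR). Rps19 had 145 and 139 CPM in the anti-CD93 libraries, against 129 and 178 CPM in the control IgG libraries, with overlapping groups; Rps19 is the gene most often mutated in Diamond-Blackfan anaemia.

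The paralogs Rpl22l1 and Rps27l, which resemble a standard protein, were read far below it, in RPKM, in every library. Rpl22 had 77.5 and 75.9 RPKM with anti-CD93 and 69.4 and 92.9 RPKM with control IgG. Rpl22l1 had 10.2 and 11.2 RPKM with anti-CD93 and 10.3 and 9.42 RPKM with control IgG. Rps27 had 89.8 and 89.2 RPKM with anti-CD93 and 74.3 and 86.1 RPKM with control IgG. Its p53-inducible paralog Rps27l had 16.1 and 11.6 RPKM with anti-CD93 and 14.0 and 7.22 RPKM with control IgG. Rps27l was therefore lowest in control IgG replicate 2, the opposite of most members, and its groups overlapped.

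Rpl7l1, a paralog of Rpl7, had 55.8 and 53.0 CPM with anti-CD93 and 59.6 and 71.3 CPM with control IgG, a log2 fold change of -0.27 (SE 0.19, adjusted p = 0.812 by edgeR). Rpl7 had 425 and 444 CPM with anti-CD93 and 454 and 517 CPM with control IgG. In both of this pair the anti-CD93 libraries lay below the controls. Rpl10l, which replaces Rpl10 in male germ cells, had 0 reads in all 4 libraries, as did the pseudogene row Rps12l1. Rpl39l, another germ-cell paralog, had 0 and 0 reads with anti-CD93 and 2 and 2 reads with control IgG, where 3 reads were taken as the floor. Rpl3l, the striated-muscle paralog of Rpl3, had 8 and 2 reads with anti-CD93 and 6 and 15 reads with control IgG. These 4 rows were too low to test. Rpl3 itself had 407 and 424 CPM with anti-CD93 and 406 and 495 CPM with control IgG. Rpl39 had 62.4 and 52.1 CPM with anti-CD93 and 56.4 and 55.7 CPM with control IgG, and Rpl10 had 231 and 221 CPM with anti-CD93 and 214 and 243 CPM with control IgG. The groups overlapped for Rpl3, Rpl39 and Rpl10.

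The rows at the lower end had large but imprecise fold changes. Rpl24 had 30 and 13 reads with anti-CD93 and 20 and 1 reads with control IgG, a log2 fold change of 0.55 (SE 0.96, adjusted p = 0.900 by edgeR) that rests on the single read of 1 library. Rps10 had 4.58 and 6.54 CPM with anti-CD93 and 8.65 and 4.71 CPM with control IgG, and Rpl32l had 1.86 and 1.53 CPM with anti-CD93 and 1.55 and 1.18 CPM with control IgG, each with overlapping groups.

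The control libraries differed from each other more than the anti-CD93 libraries did. Over the 85 tested members the median absolute log2 difference was 0.067 between the anti-CD93 libraries and 0.33 between the control IgG libraries. The anti-CD93 libraries were within 10% of each other for 67 of 85 members, and the control IgG libraries for 15. Control IgG replicate 2 was higher than control IgG replicate 1 for 71 of 85 members, by a median of 1.23-fold (1.26-fold for the large subunit, 1.22-fold for the small). It was the highest of the 4 libraries for 62 of 85 members, where it was so for 38.7% of all genes tested. The members farthest apart between the controls were Rpl24, Rpl37 and Rpl29, each by more than 2-fold.

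**Figure D3:**
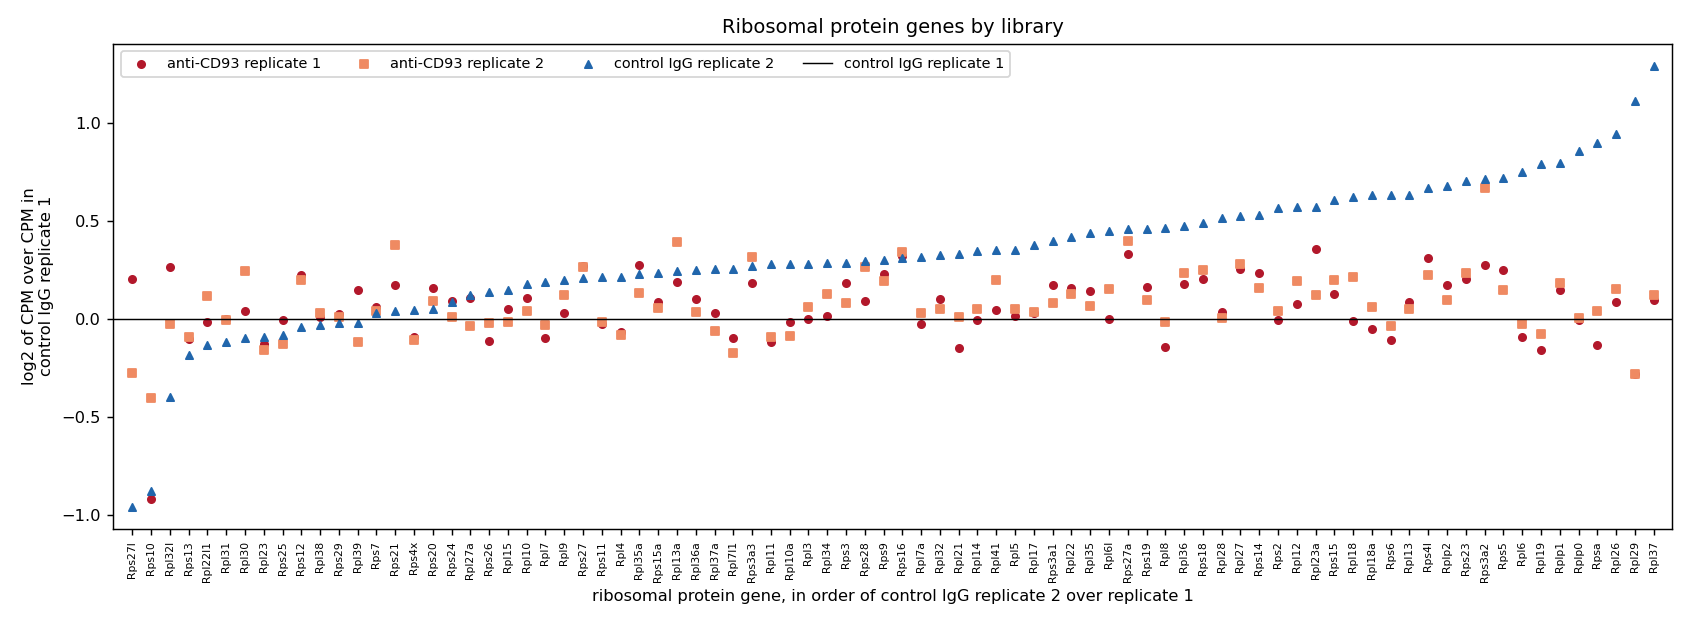
Most tested members, Rpl24 not among them, in order of control IgG replicate 2 over control IgG replicate 1; the vertical axis is log2 of its CPM in a library over its CPM in control IgG replicate 1 (line at 0). For most members drawn the 2 anti-CD93 libraries stay near the line and near each other, and Rps10 is among the exceptions. Control IgG replicate 2 runs from -0.96 for Rps27l to 1.29 for Rpl37.

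The direction of the family's median changed with that library. Without control IgG replicate 2, 60 of 85 members were above 0, against 50.8% of all genes, with a median log2 fold change of 0.070, and the subunit medians were 0.035 (large) and 0.13 (small). None of the 85 passed then, where 16 of 18153 genes did (0.0881%). At an unadjusted p under 0.05, 8 members were higher, where 4.47% of all genes were, and Rpl29 was lower, where 3.38% were. Rps16 had a log2 fold change of 0.33 (SE 0.10, adjusted p = 0.417 by edgeR) in this fit, Rps21 0.28, Rps27 0.27 and Rps23 0.22. Rps23 had been at -0.18 with all 4 libraries, and Rpl37, Rpl26, Rplp1 and Rplp2 likewise turned to 0.11, 0.12, 0.17 and 0.13. Other members stayed below 0 but nearer to it, with Rpsa at -0.044, Rplp0 at -0.0011, Rps6 at -0.070, Rpl19 at -0.12, Rpl6 at -0.060 and Rpl11 at -0.11.

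Without control IgG replicate 1 the fit compared the anti-CD93 libraries with control IgG replicate 2 alone, which was assumed to vary like the other group. Then 22 of 86 members were above 0 with a median of -0.22 (large -0.28, small -0.12), and 26 members passed the test, where 4623 of 18750 genes did (24.7%). Of the 26, 25 were lower (11.3% of all genes), 17 of the large subunit and 8 of the small, and Rps27l was higher (13.4% of all genes), at 0.98. The lowest were Rpl29 at -1.36, Rpl37 at -1.14, Rpsa at -0.91, Rpl19 at -0.87 and Rplp0 at -0.82. These calls set 2 libraries against 1 and are values of that library as much as of the group.

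**Figure D4:**
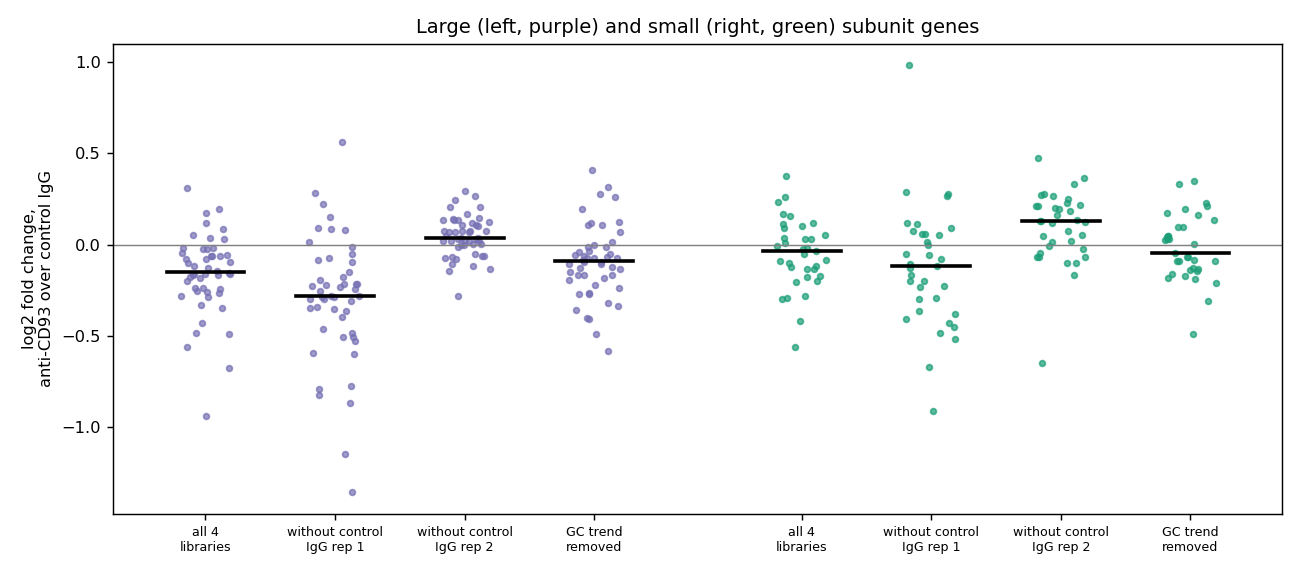
Log2 fold change (anti-CD93 over control IgG) of each tested large-subunit (left) and small-subunit (right) gene except Rpl24 and Rpl3l with all 4 libraries, without either control library and with the GC trend removed; bars are medians over all tested genes of the subunit. The large-subunit median runs from -0.15 with all libraries to 0.035 without control IgG replicate 2, and the small-subunit median from -0.035 to 0.13.

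The difference between the controls moved with GC content. Over the 85 members, log2 of control IgG replicate 2 over control IgG replicate 1 had a Spearman correlation of 0.36 with the GC content of the transcripts, and it was 0.49 in the large subunit (n = 50) and 0.21 in the small subunit (n = 35). Over the 16615 tested genes with a GC value it was 0.51; these are descriptions across genes that share the same 2 libraries. Under 45% GC the median difference was 0.054 for the 5 members and -0.41 for all genes. Between 45% and 50% it was 0.24 for 29 members and -0.093 for all genes, between 50% and 55% it was 0.33 for 31 members and 0.20 for all genes, and at 55% or more it was 0.50 for 20 members and 0.43 for all genes. In each GC range the members' median was above that of all genes. The 2 were not measured quite alike. Members took the GC of their longest protein-coding transcript, where they had one, and plain CPM. All genes took their longest transcript of any type, with a small constant added to CPM.

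**Figure D5:**
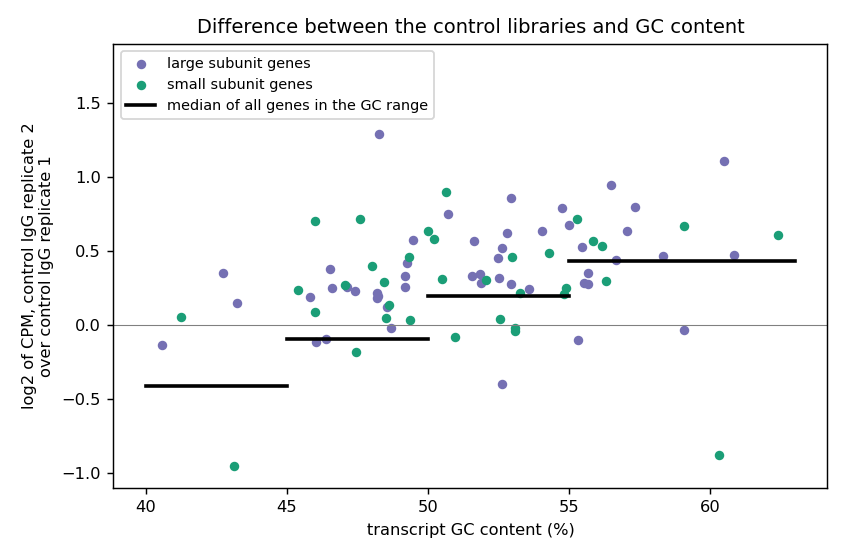
Log2 of CPM in control IgG replicate 2 over control IgG replicate 1 against transcript GC content (%), for each tested member except Rpl24; black bars are medians of all tested genes in 4 GC ranges, the lowest drawn from 40% but covering all genes under 45%. The bars rise through -0.41, -0.093, 0.20 and 0.43, and most members lie above them.

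With each library's GC trend removed, a setting added after the data were seen, 29 of 85 members were above 0 and the median was -0.072, so the sign stayed but the size was smaller than the -0.098 without it. This held for the large subunit, with 12 of 50 above 0 and a median of -0.089, against -0.15 without it. In the small subunit 17 of 35 were above 0 and the median was -0.046, slightly farther from 0 than the -0.035 without it. Rpl29 remained the lowest at -0.58, and Rps27 and Rps21 were the highest but for Rpl24 and Rpl32l, at 0.35 and 0.33. Rpl36, at 60.8% GC, turned to 0.26, where it had been at -0.045, and Rpl30 turned to -0.15, where it had been at 0.19. No member passed the test in this fit.

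The subunits can be compared within each library, where depth and scaling cancel. As the median deviation of large-subunit genes from their 4-library mean, less the same for small-subunit genes, the log2 difference was -0.073 and -0.027 in the anti-CD93 libraries and 0.045 and 0.10 in the control IgG libraries. The 2 groups did not overlap, and neither did they for 20.1% (anti-CD93 above) and 19.7% (anti-CD93 below) of all single genes tested. Between the groups, the large-subunit median fold change lay 0.11 below the small-subunit median on the log2 scale (-0.15 and -0.035), and the sign was the same in every fit run. The difference was -0.062 when anti-CD93 replicate 1 was left out, -0.16 when control IgG replicate 1 was, -0.093 when control IgG replicate 2 was, and -0.042 with the GC trend removed. Members are not replicates of a condition, and 2 libraries in a group allow no test of this difference.

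Other genes of translation were read from lists, described by the same fit, and none of their members passed the test. Fau had 208 and 205 CPM with anti-CD93 and 177 and 301 CPM with control IgG, and like most members it was highest in control IgG replicate 2. A list of translation factors and other genes, such as Npm1 and Nap1l1, was made for the pyrimidine start. The starts of these genes were not looked at separately. The list had 9 of 23 above 0 and a median of -0.016, next to -0.0092 for all genes. With the GC trend removed the list had 5 of 23 above 0 and a median of -0.11, and with control IgG replicate 2 left out 9 of 23 and -0.050. Eif3d and Eif3l, subunits of the factor that brings the small subunit to mRNA, were the 2 with the smallest p. Eif3d had 59.0 and 61.2 CPM in the anti-CD93 libraries, against 65.3 and 104 CPM in the control IgG libraries. Eif3l had 86.3 and 81.9 CPM in the anti-CD93 libraries, against 95.0 and 124 CPM in the control IgG libraries. Both lay below the controls in both libraries, with log2 fold changes of -0.49 (SE 0.24) and -0.38 (SE 0.19), which were -0.12 and -0.18 without control IgG replicate 2.

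Ribosome biogenesis genes, which process ribosomal RNA and assemble the subunits, had 12 of 45 above 0 with a median of -0.11, and 14 of 45 lay below the controls in both libraries (19.7% of all genes). Eif6 had 62.0 and 65.1 CPM in the anti-CD93 libraries, against 74.2 and 119.8 CPM in the control IgG libraries, a log2 fold change of -0.61 (SE 0.24, adjusted p = 0.812 by edgeR); Eif6 keeps the new large subunit from joining too early. Rrp9 had 12.6 and 11.99 CPM in the anti-CD93 libraries, against 16.7 and 22.1 CPM in the control IgG libraries, a log2 fold change of -0.65 (SE 0.25, adjusted p = 0.812 by edgeR). The log2 fold change was -0.23 for Eif6 and -0.44 for Rrp9 without control IgG replicate 2, and -0.88 and -0.81 without control IgG replicate 1. With control IgG replicate 2 left out, the median of the list was -0.054 and 11 of 45 were above 0. With the GC trend removed the median was -0.12, also with 11 of 45 above 0. RNA polymerase I genes, which transcribe ribosomal RNA, had 7 of 15 above 0 and a median of -0.020, which was -0.060 without control IgG replicate 2, -0.048 with the GC trend removed and 0.035 without control IgG replicate 1. Znrd1 had 8.93 and 7.63 CPM in the anti-CD93 libraries, against 14.9 and 14.6 CPM in the control IgG libraries, a log2 fold change of -0.83 (SE 0.26, adjusted p = 0.812 by edgeR). The controls were close together for Znrd1, a subunit of that polymerase, and the log2 fold change was -0.85 without control IgG replicate 2 and -0.77 without control IgG replicate 1. Polr1c had 17.9 and 17.1 CPM in the anti-CD93 libraries, against 13.3 and 12.1 CPM in the control IgG libraries, a log2 fold change of 0.46 (SE 0.23, adjusted p = 0.812 by edgeR), with log2 fold changes of 0.40 and 0.57 in the same fits.

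Genes that control translation through mTOR and Myc had 9 of 19 above 0 and a median of -0.013. Both without control IgG replicate 2 and with the GC trend removed, 12 of 19 were above 0 and the median was 0.046. Eef2k had 25.8 and 25.6 CPM in the anti-CD93 libraries, against 17.5 and 20.2 CPM in the control IgG libraries, a log2 fold change of 0.45 (SE 0.21, adjusted p = 0.812 by edgeR); this kinase slows elongation by phosphorylating Eef2. Rheb had 58.4 and 59.5 CPM in the anti-CD93 libraries, against 52.9 and 34.0 CPM in the control IgG libraries, with a log2 fold change of 0.44 (SE 0.24, adjusted p = 0.812 by edgeR); Rheb is the small GTPase that activates mTOR. In both genes each anti-CD93 library was above each control. Without control IgG replicate 2 the log2 fold change was 0.56 for Eef2k and 0.15 for Rheb, and without control IgG replicate 1 it was 0.38 and 0.83. Host genes of small nucleolar RNAs had 5 of 8 above 0 and a median of 0.072, among them Snhg8 at 16.1 and 12.4 CPM with anti-CD93 and 13.5 and 6.42 CPM with control IgG, and Snhg6 at 12.1 and 10.2 CPM with anti-CD93 and 10.1 and 8.99 CPM with control IgG. The list turned to 2 of 8 above 0 both without control IgG replicate 2 (median -0.078) and with the GC trend removed (median -0.060).

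The mitochondrial ribosome, a separate machine whose proteins are made in the cytosol, had 16 of 77 genes above 0 and a median of -0.18, and 25 of 77 lay below the controls in both libraries (19.7% of all genes). Mrps18a had 15.0 and 15.8 CPM in the anti-CD93 libraries, against 21.2 and 24.2 CPM in the control IgG libraries, a log2 fold change of -0.56 (SE 0.22, adjusted p = 0.812 by edgeR). Mrpl38 had 18.9 and 19.3 CPM in the anti-CD93 libraries, against 24.0 and 33.0 CPM in the control IgG libraries, a log2 fold change of -0.58 (SE 0.24, adjusted p = 0.812 by edgeR), which was -0.33 without control IgG replicate 2. With control IgG replicate 2 left out, the list had 39 of 77 above 0 and a median of 0.0014, and with the GC trend removed it had 15 of 77 and a median of -0.16. The proteasome core, taken as a set of housekeeping genes outside translation, had 2 of 14 above 0 and a median of -0.16. Psmb3 had 18.1 and 15.8 CPM with anti-CD93 and 15.2 and 30.6 CPM with control IgG, and Psma4 had 68.0 and 57.3 CPM with anti-CD93 and 63.3 and 89.3 CPM with control IgG. Without control IgG replicate 2 the proteasome list had 5 of 14 above 0 and a median of -0.025. Medians below 0 with all 4 libraries were thus found here, in the mitochondrial ribosome and in ribosome biogenesis, as in the cytosolic ribosome. The translation factor, RNA polymerase I and mTOR and Myc medians were nearer to 0, at -0.016, -0.020 and -0.013. No test set the lists apart.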

How the data were processed

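RNA of 4 libraries was sequenced as paired reads after a stranded low-input total RNA kit, per the labels' protocols. The submitters' processing notes name GRCm38, STAR 2.7.5b and DESeq2 1.28.1. The deposited table holds raw read counts per gene name from featureCounts 2.0.1 on GENCODE vM25, per the file headers. The recorded command sets no paired, strand or multi-mapping option, so mates were counted separately, antisense reads were not separated, and reads with several possible sources were lost. The other deposited table, which its name calls normalized, has identical counts (0 of 221468 cells differed) and was not used further.

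From the counts, genes with a minimum count of 10 (filterByExpr) were scaled by TMM. They were tested by edgeR 4.0.16 in R 4.3.3 (quasi-likelihood, robust), adjusted by Benjamini-Hochberg over all 16945 genes, with no covariates. The step was also run on simulated counts. In these no library was set apart as control IgG replicate 2 is, so they do not check the test for such a library. CPM values of single genes are TMM-scaled, and shares and marker sums use all assigned reads. RPKM divides the TMM-scaled CPM of a gene by its merged exon length in kilobases. Transcript GC and shared windows of 100 bases came from GENCODE transcripts of an earlier release on the same build, with a GC value for 98.1% of tested genes. Assigned reads of 9364294 to 17813993 per library and 2 libraries per group limit the precision. Alternatives were other scalings and count filters, DESeq2 1.42.0, limma-voom 3.58.1, a replicate block, each library left out, and removal of each library's trend with length or GC. Genes named were the 5 with the smallest p in each direction and subunit, the 4 highest and 4 lowest per length in each subunit, stalk genes, Rpsa, paralog pairs, Rpl5, Rpl11, Rps6, Rps19, Cd93 and 2 genes of each other list. Some genes that this rule names are not reported here, nor drawn in the plots labelled by gene. Members and lists were chosen with earlier results of these data known.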

Additional observations from a re-analysis of the deposited data

How the results depend on the processing

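With all 4 libraries edgeR called 0 genes and 0 ribosomal protein genes. It called 48 genes (0.144%) and 1 member, Rpl29 (log2 fold change -0.88, adjusted p = 0.031 by edgeR), with no count filter, and DESeq2 called 5 genes and 0 members. Leaving out 1 library gave 0 to 4623 genes called and 0 to 26 members called, 22 to 60 members above 0 (23 with all libraries), medians of -0.22 to 0.070 over all members, -0.28 to 0.035 in the large subunit and -0.12 to 0.13 in the small subunit, and a large-minus-small difference of -0.16 to -0.062 (-0.11 with all libraries). The highest numbers of calls came without control IgG replicate 1, and the positive medians without control IgG replicate 2. Same-numbered libraries did not deviate together (correlation -0.016 over 16945 genes). With 2 libraries per group and control IgG replicate 2 apart from the others, this cannot show whether the numbers pair them. The replicate block called 14 genes (0.0826%) and 0 members, with 24 members above 0 and a median of -0.089. With the GC trend removed, which was chosen after the data were seen, the large-minus-small difference was -0.042. Over the 57 tested members with distinct sequence, also chosen after the data were seen, 15 were above 0, fewer because fewer genes enter, with a median of -0.096. The small-subunit median was 0.019 with no count filter. Other scalings, limma-voom, a minimum count of 50 and standard genes only left every call, and the signs of all 3 medians, as they were.

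Of the named genes, Cd93 (0.025), Rpl10 (0.032), Rpl36 (0.0087) and Rps15a (0.0023) turned positive with no count filter, and Rpl10 (0.034) with the length trend removed. With the GC trend removed Fau (0.11) and Rpl36 (0.26) turned positive and Rpl22l1 (-0.072), Rpl30 (-0.15) and Snhg6 (-0.028) negative. Leaving out 1 library gave ranges that crossed 0 for Cd93 (-0.098 to 0.077), Fau (-0.51 to 0.22), Psmb3 (-0.82 to 0.16), Rpl3 (-0.22 to 0.030), Rpl5 (-0.28 to 0.033), Rpl10 (-0.070 to 0.073), Rpl22 (-0.24 to 0.14), Rpl24 (-0.29 to 3.56), Rpl26 (-0.79 to 0.12), Rpl36 (-0.23 to 0.21), Rpl37 (-1.14 to 0.11), Rpl39 (-0.086 to 0.17), Rplp1 (-0.60 to 0.17), Rplp2 (-0.51 to 0.13), Rps2 (-0.51 to 0.017), Rps3a1 (-0.23 to 0.13), Rps3a2 (-0.20 to 0.48), Rps10 (-0.65 to 0.27), Rps15a (-0.13 to 0.073), Rps19 (-0.29 to 0.13), Rps23 (-0.45 to 0.22) and Rps27l (-0.0097 to 0.98). The cause of these turns was not tested. Depth limits the lowest rows, such as Rpl24 with 1 read in 1 library, and 2 libraries per group limit every test.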

Other observations

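Some highly read genes of translation and the nucleolus, picked here after their values were seen, did not share the excess of control IgG replicate 2 alike. Eef1a1, which carries aminoacyl-tRNA to the ribosome, had 2621 and 2631 CPM with anti-CD93 and 2789 and 2488 CPM with control IgG, so that control IgG replicate 2 was the lowest library. Eef2, which moves the ribosome along the mRNA, had 1582 and 1613 CPM with anti-CD93 and 1665 and 2130 CPM with control IgG, where it was the highest. Npm1, a nucleolar chaperone, had 347 and 323 CPM with anti-CD93 and 352 and 247 CPM with control IgG. Ncl, the nucleolar protein nucleolin, had 703 and 566 CPM with anti-CD93 and 530.1 and 519 CPM with control IgG, a log2 fold change of 0.27 (SE 0.18, adjusted p = 0.812 by edgeR) with no overlap between the groups.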
